A study of Mus musculus with 17 samples.

Results

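The 17 cortical microvessel RNA-seq libraries of the study fell into 10 that were rich in Ttr mRNA and 7 that were poor in it. Ttr encodes transthyretin, the thyroid hormone and retinol carrier that the choroid plexus secretes into the cerebrospinal fluid. A library was taken as Ttr-rich when its Ttr level reached 1000 CPM (its read count scaled to the library's total, the usual CPM unit), and as Ttr-poor below that. The sets were therefore chosen from a measured level and are not groups of the study. The difference in Ttr itself is given as a description, and the tests of other genes say only which genes moved with that split.

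The microvessels came from the cortex of 10 to 11 month old mice, either wild type (WT) or APP/PS1, a transgenic mouse model of Alzheimer's disease. Animals of both genotypes received 10 mg/kg intraperitoneally every 2 days for 2 weeks, either of gp91-ds-tat, a peptide inhibitor of the NADPH oxidase NOX2, or of the control peptide sgp91-ds-tat. The libraries numbered 5 from WT mice with the control peptide (WT_SC), 5 from WT mice with the inhibitor (WT_NOX2), 2 from APP/PS1 mice with the control peptide (APP_SC) and 5 from APP/PS1 mice with the inhibitor (APP_NOX2). All were made from the pellet of a dextran spin of the cortex on the side of an earlier surgery, a preparation that holds whatever settles with the vessels. The labels do not say whether the libraries of a group came from separate animals, so the p-values below measure the spread between these libraries.

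The choroid plexus is a fold of tissue inside the brain ventricles, in which a single layer of ciliated epithelium covers a core of fenestrated capillaries and stroma. Its epithelium secretes cerebrospinal fluid by moving sodium, chloride, bicarbonate and water, carries folate and other vitamins from blood to fluid, and closes the blood-cerebrospinal fluid barrier with tight junctions. Ttr, Folr1, Kl, Clic6 and Kcnj13 are markers of that epithelium, which is not a cell type that the labels give for these libraries.

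Ttr spanned a 715-fold range over the 17 libraries. In the Ttr-rich libraries its lowest, median and highest levels were 1731, 3211 and 7285 CPM, and in the Ttr-poor libraries they were 10.2, 190 and 472 CPM. The library just inside the threshold was APP_SC 1 at 1731 CPM and the one just outside was APP_NOX2 5 at 472 CPM, so no library lay between those levels and a threshold of 500 CPM gives the same sets.

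Both sets drew on every group. WT_SC gave 3 rich and 2 poor libraries, WT_NOX2 gave 3 and 2, APP_SC gave 1 and 1, and APP_NOX2 gave 3 and 2. The highest library, WT_SC 4, and the lowest, WT_SC 1, belonged to the same group. At 182 Ttr reads, WT_SC 1 had a 95% Wilson interval of 8.81 to 11.8 CPM, which covers counting error only.

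The libraries held 7316503 to 16292707 counts in the Ttr-rich set and 9535602 to 17862965 counts in the Ttr-poor set. The labelled cell types were present in both sets, with Cldn5 of the endothelium at 157 to 388 CPM in the rich libraries and 168 to 323 CPM in the poor ones, and Pdgfrb of pericytes and Aqp4 of astrocyte endfeet at 65.2 CPM or more throughout. Neuronal Snap25 was also present, at 355 to 617 CPM in the rich libraries and 383 to 623 CPM in the poor ones. The non-coding Gm26917 and Gm42418 together took 4.76% to 15.3% of the counts of rich libraries and 6.81% to 15.99% of those of poor libraries. The summed Y-linked level exceeded 100 CPM in 4 of 10 rich and 3 of 7 poor libraries, whose X-linked Xist ran from 13.7 to 645 CPM. The other libraries had Xist of 5715 CPM or more. Among these the Y-linked sum was 23.0, 15.1, 12.5 and 4.98 CPM in WT_NOX2 3, APP_NOX2 2, APP_SC 2 and APP_NOX2 5, and at most 0.705 CPM elsewhere. The labels give no sex, and the source of the intermediate values was not tested.

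Folr1, Kl, Clic6 and Kcnj13 were all higher in the Ttr-rich libraries, and in each case every rich library lay above every poor one. These genes encode folate receptor alpha, the co-receptor klotho, a chloride channel protein and an inwardly rectifying potassium channel. In the GENCODE vM21 annotation of GRCm38 they are protein-coding genes at chr7:101858331-101870788 (Folr1), chr5:150952607-150993817 (Kl), chr16:92485736-92541243 (Clic6) and chr1:87386363-87394729 (Kcnj13).

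Folr1 had lowest, median and highest levels of 11.5, 27.3 and 51.4 CPM in the rich libraries and 0.336, 1.38 and 3.44 CPM in the poor ones. Kl stood at 110, 224 and 424 CPM in the rich libraries and at 12.5, 24.7 and 35.4 CPM in the poor ones. For Clic6 the rich libraries gave 27.5, 69.7 and 123 CPM and the poor ones 1.46, 6.03 and 9.81 CPM. The lowest level of each of these genes was in WT_SC 1 and the highest in WT_SC 4, as it was for Ttr. Kcnj13 had 23.3, 49.0 and 109 CPM in the rich libraries against 4.03, 8.60 and 11.9 CPM in the poor ones, with WT_SC 1 and WT_SC 2 the lowest and nearly level at 4.03 and 4.04 CPM. The ratio of the medians was 19.8 for Folr1, 11.6 for Clic6, 9.10 for Kl and 5.70 for Kcnj13, beside 16.9 for Ttr.

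**Figure D1:**
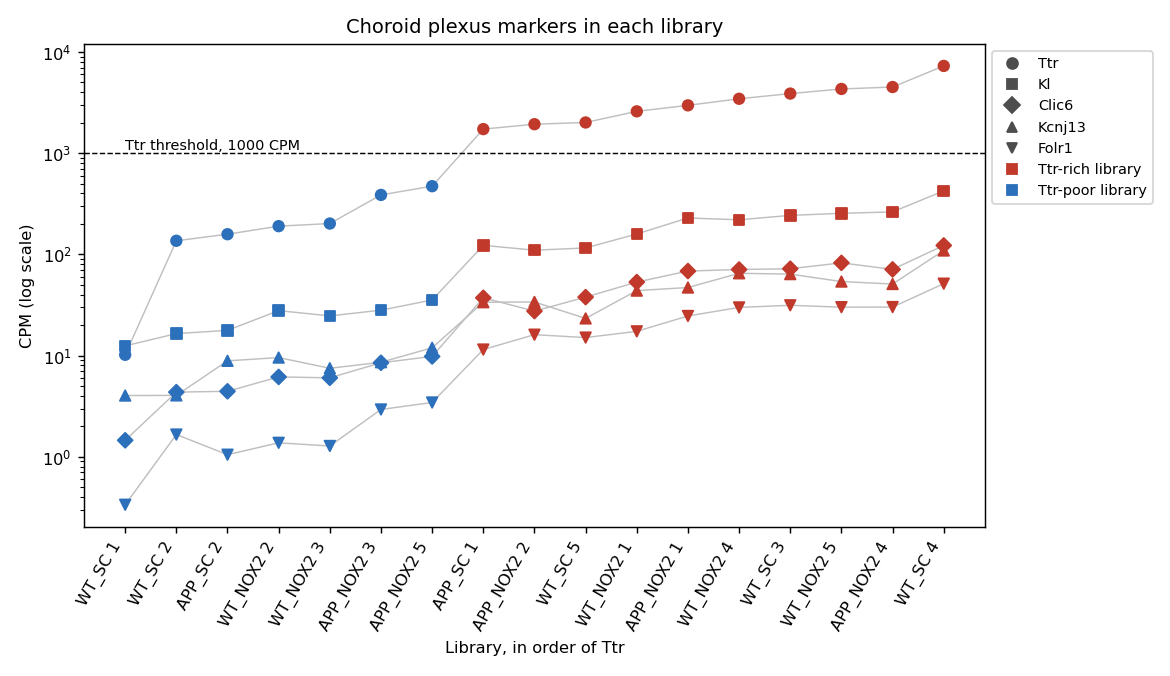
Level in CPM (log axis) of Ttr, Folr1, Kl, Clic6 and Kcnj13 in each of the 17 libraries, ordered by Ttr; red points are Ttr-rich and blue points Ttr-poor libraries, and the dashed line is the threshold of 1000 CPM. Each marker steps up between APP_NOX2 5 and APP_SC 1, where Ttr goes from 472 to 1731 CPM.

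Differences between the sets were fitted with edgeR's quasi-likelihood test on the counts, with the 4-group label as a covariate and Benjamini-Hochberg adjustment over the 18752 genes tested besides Ttr. At an adjusted p under 0.05, 207 genes were called, 1.1% of those tested. Of these, 203 genes were higher in the Ttr-rich libraries, which is 1.08% of those tested, and 4 were lower, which is 0.0213%. In the same fit 1864 genes had an unadjusted p under 0.05. All rich libraries lay above all poor ones for 139 genes, 0.741% of those tested, and below them for 0. The median log2 difference over all genes tested was -0.0034. Without APP_SC 1 the call count rose to 345, of which 71.0% were higher, and without APP_SC 2 it rose to 342, of which 70.8% were higher. A DESeq2 Wald test called 296 genes, among them all 207 of the edgeR calls.

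**Figure D2:**
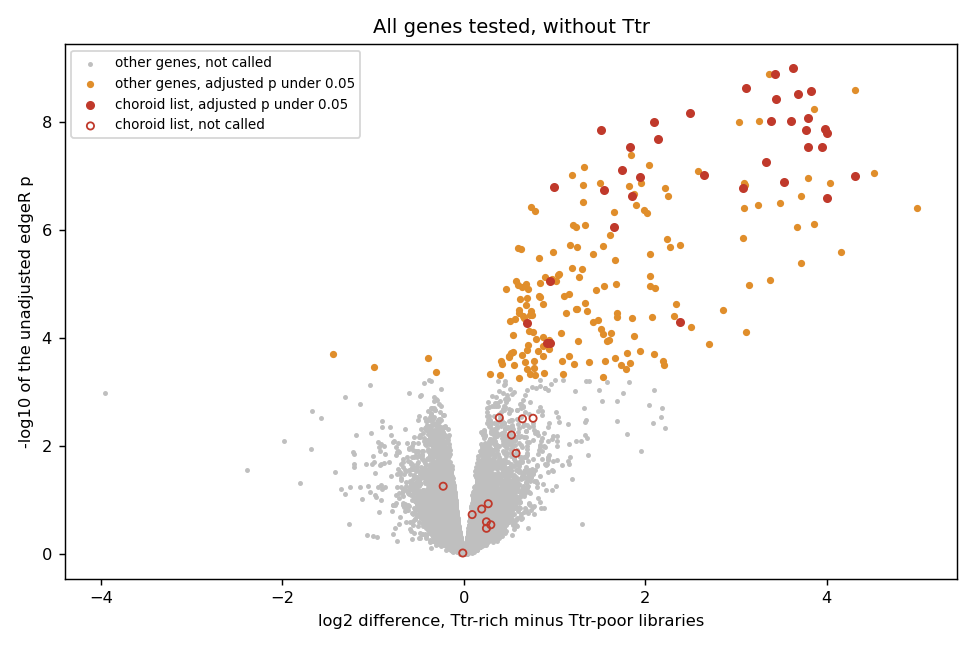
Log2 difference, Ttr-rich minus Ttr-poor libraries (horizontal), against −log10 of the unadjusted edgeR p (vertical) for the 18752 genes tested without Ttr; red marks the choroid epithelium list, filled where the adjusted p was under 0.05, and orange marks other genes past it. Calls lie almost all to the right, 203 higher and 4 lower.

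Of 50 choroid epithelium genes listed besides Ttr, 49 had enough counts to be tested, and Mia did not. In the Ttr-rich libraries 36 of the 49 were higher and 0 lower, and 34 had every rich library above every poor one. The median log2 difference over the 49 was 1.94. These genes are known to share their tissue with Ttr, and the list was drawn up with results of these data known, so the counts describe the split and are no independent evidence of it. Fewer choroid cells and less choroid RNA per cell cannot be told apart in bulk libraries. The summed level of the list without Ttr was 4581 to 10538 CPM in the rich libraries and 3038 to 3632 CPM in the poor ones. Genes that did not pass hold much of the sum in the poor libraries, such as Atp1b1 at a median of 1226 CPM and Igf2 at 408 CPM, while Mfrp, Folr1 and Slc4a5 were at 0.224, 0.336 and 0.448 CPM in their lowest library.

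Among the 5 genes for hormone, vitamin and metal handling besides Ttr, 2 were higher. Folr1 differed by 3.82 ± 0.36 on the log2 scale (SE, edgeR adjusted p = 8.48e-06). The copper importer Slc31a1 differed less, by 0.70 ± 0.13, from a median of 41.9 CPM in the poor libraries to 66.8 CPM in the rich ones (edgeR adjusted p = 0.00670). Transferrin (Trf) at 0.20 ± 0.13 and the iron exporter Slc40a1 at 0.25 ± 0.21 did not pass the threshold.

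Ion, water and solute transport contributed 9 called genes of 15. The largest difference of a well-covered gene in that group was in Slc4a5, a sodium bicarbonate cotransporter of the apical membrane, at 26.8, 57.0 and 122 CPM in the rich libraries against 0.448, 3.29 and 6.30 CPM in the poor ones. Its log2 difference was 3.98 ± 0.41 with an edgeR adjusted p of 1.41e-05. The water channel Aqp1 was at 12.95, 25.4 and 60.5 CPM against 0.784, 3.11 and 3.87 CPM, a log2 difference of 3.33 ± 0.38. Both genes separated the sets without overlap.

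Kcne2, a potassium channel subunit, differed by 3.77 ± 0.39, Clic6 by 3.39 ± 0.34 and Kcnj13 by 2.65 ± 0.31. Smaller differences were found for the monoamine transporter Slc29a4, 1.85 ± 0.23, and the membrane carbonic anhydrase Car12, 1.66 ± 0.23. The lactate transporter Slc16a8 was called at low counts, 1.596 to 7.32 CPM in the rich libraries against 0 to 0.732 CPM in the poor ones, and no fold is given for it.

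Trpm3, a cation channel gene, varied less among the poor libraries than Ttr and Folr1 did. It stood at 225, 340 and 548 CPM in the rich libraries and at 108, 112 and 113 CPM in the poor ones, a log2 difference of 1.52 ± 0.16 (edgeR adjusted p = 1.41e-05). Across the 7 poor libraries its highest level was 1.05 times its lowest, while that of Ttr was 46.3 times its lowest and that of Folr1 10.2 times. Small spreads were also seen in Htr2c, at 1.25 times, and in Slc4a10, which did not pass, at 271 to 358 CPM.

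The 6 transport genes that did not pass included the sodium-potassium-chloride cotransporter Slc12a2 at 0.39 ± 0.11, the osmosensitive channel Trpv4 at 0.65 ± 0.19 and the sulfate transporter Slc13a4 at 0.58 ± 0.21. The organic anion transporter Slc22a8 stood at 0.27 ± 0.16, the bicarbonate transporter Slc4a10 at 0.09 ± 0.07 and the sodium pump subunit Atp1b1 at -0.23 ± 0.11. All 6 had rich and poor libraries that overlapped. Their levels in the poor libraries ranged from 11.6 CPM for Trpv4 to 1377 CPM for Atp1b1.

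Of the 10 genes grouped as receptors and membrane proteins, all 10 were higher. The prolactin receptor Prlr was at 72.7, 141 and 290 CPM in the rich libraries and at 7.22, 10.2 and 21.96 CPM in the poor ones, a log2 difference of 3.43 ± 0.31 (edgeR adjusted p = 8.27e-06). Tmem72, a membrane protein gene, had 69.7, 138 and 265 CPM against 0.896, 6.58 and 17.4 CPM, a log2 difference of 4.00 ± 0.42. Klotho (Kl) differed by 3.11 ± 0.29.

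Mfrp, a frizzled-related membrane protein gene, was at 28.7, 65.4 and 126 CPM in the rich libraries against 0.224, 3.66 and 8.13 CPM in the poor ones, a log2 difference of 3.95 ± 0.43. The metalloreductase Steap1 differed by 3.53 ± 0.43 and the retinoid transporter Abca4 by 1.54 ± 0.19. Steap1 had few counts in the poor libraries, at 0.0560 to 1.39 CPM against 3.31 to 15.6 CPM in the rich ones. The serotonin receptor Htr2c, at 81.2, 113 and 178 CPM against 47.6, 57.2 and 59.3 CPM, differed by 0.99 ± 0.12. All 4 genes separated the sets.

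Angiotensin-converting enzyme (Ace), which endothelium also expresses, was at 136, 216 and 376 CPM in the rich libraries and at 55.8, 115 and 144 CPM in the poor ones. Its libraries overlapped, and the log2 difference was 0.95 ± 0.20 (edgeR adjusted p = 0.0144). It did not pass in WT libraries alone. The group also holds 2 genes whose products are not membrane proteins. F5, coagulation factor V, differed by 2.50 ± 0.25, and Cab39l, a scaffold of the STE20 kinase pathway, by 0.95 ± 0.16.

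Secreted factors gave 7 called genes of 9 tested. Enpp2, which encodes the lysophospholipase autotaxin, had 938, 1741 and 3105 CPM in the rich libraries and 298, 323 and 454 CPM in the poor ones, a log2 difference of 2.14 ± 0.23 (edgeR adjusted p = 1.92e-05). The BMP and Wnt antagonist Sostdc1 had 14.4, 34.2 and 67.1 CPM against 1.21, 2.38 and 6.30 CPM, a log2 difference of 3.45 ± 0.33. For both the sets were apart, but Enpp2 never went below 298 CPM while Sostdc1 reached 1.21 CPM.

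The peptide hormone gene 1500015O10Rik (also known as augurin) differed by 3.69 ± 0.35. The protease inhibitor-like Wfdc2 was called at low counts, and no fold is given for it. It was at 1.75 to 8.29 CPM in the rich libraries and 0.161 to 0.336 CPM in the poor ones. The collagen genes Col8a1 and Col9a3 differed by 2.10 ± 0.21 and 1.83 ± 0.20, and the lipopolysaccharide-binding protein Lbp by 1.75 ± 0.20. Igfbp2, at 0.76 ± 0.22, and Igf2, at 0.25 ± 0.25, did not pass (edgeR adjusted p = 0.172 and 0.827). Both growth factor pathway genes are also expressed by meningeal cells.

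The 3 transcription factor genes listed were all higher. Otx2, the homeobox factor that marks and maintains choroid epithelium, was at 4.73, 11.0 and 21.4 CPM in the rich libraries and at 0.280, 0.944 and 1.54 CPM in the poor ones, a log2 difference of 3.61 ± 0.37 (edgeR adjusted p = 1.20e-05). Msx1 differed by 0.92 ± 0.19 with overlapping libraries, and its call was lost without WT_SC 1, WT_SC 2 or WT_NOX2 2. Lmx1a, a roof plate factor, was at 0.737 to 3.79 CPM in the rich libraries and 0 to 0.315 CPM in the poor ones.

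Of 7 junction and keratin genes 5 were higher. The pore-forming claudin Cldn2 was at 16.1, 30.2 and 67.5 CPM in the rich libraries and at 0.728, 1.83 and 5.12 CPM in the poor ones, a log2 difference of 3.79 ± 0.38 (edgeR adjusted p = 1.20e-05). Cldn1 differed by 1.94 ± 0.23. Cldn3, Krt8 and Krt18, an epithelial claudin and the simple-epithelium keratins, were called at low counts, with no poor library above 0.655 CPM for any of them. Ocln, which brain endothelium also uses in its tight junctions, stood at -0.01 ± 0.14, and E-cadherin (Cdh1) at 0.30 ± 0.27, and neither passed.

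**Figure D3:**
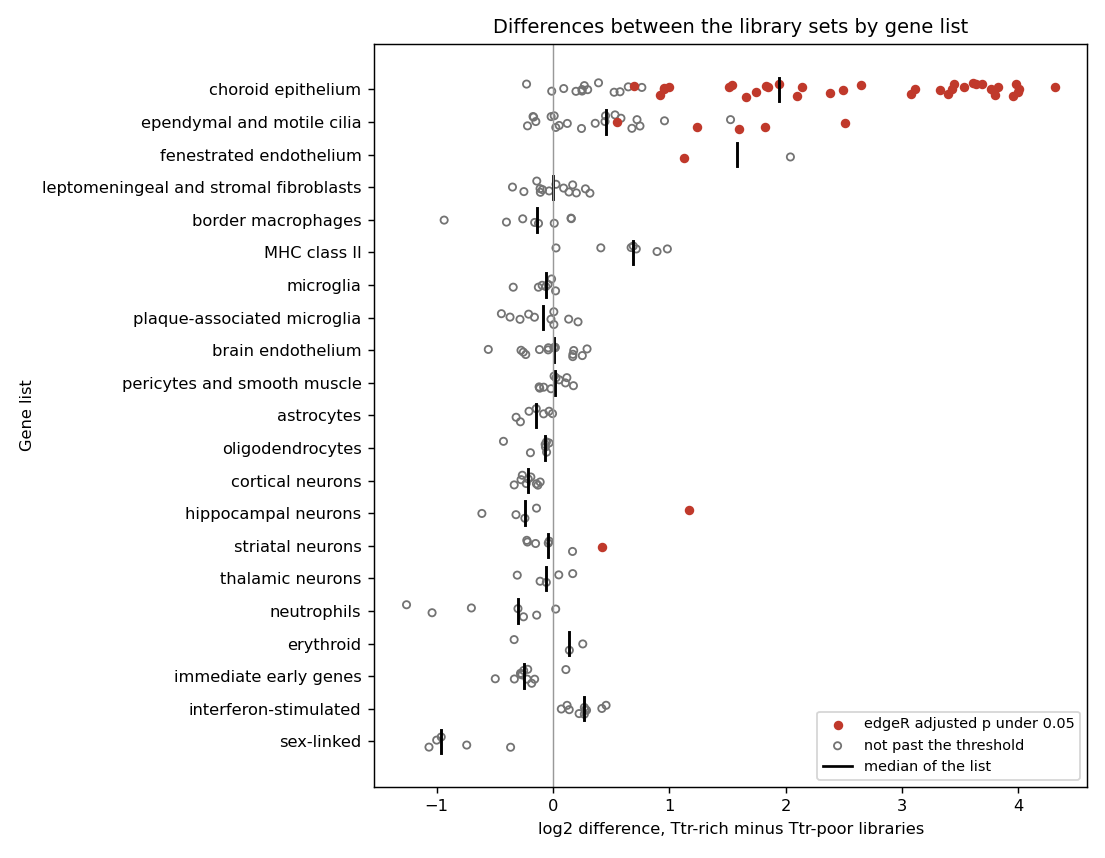
Log2 difference, Ttr-rich minus Ttr-poor libraries, for each tested gene of 21 lists (rows); red points passed an edgeR adjusted p under 0.05, open points did not, and black bars are list medians. The choroid epithelium row has a median of 1.94 and 36 of 49 genes past the threshold, while most other rows centre near 0.

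Promoters were read for the called choroid genes because these genes moved together over the libraries. RefSeq promoter windows of GRCm38.p6 were at hand for 29 of the 36 genes, in 39 windows, and the markers Folr1 and Clic6 had none. Shown here, 5′ to 3′ on the gene's strand, are the 250 bases before the start site of the marker genes Kl (chr5:150952357-150952606, plus strand) and Kcnj13 (chr1:87394730-87394979, minus strand), and of Mfrp (chr9:44101520-44101769, plus strand) and Abca4 (chr3:122044210-122044459, plus strand). Capitals mark TAATCC or its reverse complement GGATTA, the core letters that OTX factors are known to bind, searched on both strands.
Kl: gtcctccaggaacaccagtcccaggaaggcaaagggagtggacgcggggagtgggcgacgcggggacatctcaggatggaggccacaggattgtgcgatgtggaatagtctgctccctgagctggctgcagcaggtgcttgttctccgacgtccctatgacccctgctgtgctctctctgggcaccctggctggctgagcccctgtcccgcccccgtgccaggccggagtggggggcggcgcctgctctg
Kcnj13: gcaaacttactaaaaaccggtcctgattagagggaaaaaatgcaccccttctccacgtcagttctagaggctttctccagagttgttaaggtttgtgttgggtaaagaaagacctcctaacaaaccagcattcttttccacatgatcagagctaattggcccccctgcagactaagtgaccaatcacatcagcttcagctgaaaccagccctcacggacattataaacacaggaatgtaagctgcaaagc
Mfrp: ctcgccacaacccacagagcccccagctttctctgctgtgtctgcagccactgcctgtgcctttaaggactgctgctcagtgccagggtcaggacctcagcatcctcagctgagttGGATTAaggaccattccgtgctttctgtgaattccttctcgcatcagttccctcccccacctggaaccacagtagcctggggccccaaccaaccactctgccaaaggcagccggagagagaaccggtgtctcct
Abca4: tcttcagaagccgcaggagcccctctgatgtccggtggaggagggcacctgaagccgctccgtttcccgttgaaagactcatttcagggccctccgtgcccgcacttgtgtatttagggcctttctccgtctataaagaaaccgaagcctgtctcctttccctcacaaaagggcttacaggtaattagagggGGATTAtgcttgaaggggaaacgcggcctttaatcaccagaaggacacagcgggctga

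The letters occurred once in the Mfrp window and once in the Abca4 window, in both as GGATTA, and did not occur in those of Kl and Kcnj13. In all they were found in 4 of the 39 windows of called choroid genes (10.3%), those of Ace, Abca4, Mfrp and Otx2, beside 2054 of 32851 windows of all genes (6.25%). Counted by gene, that is 4 of 29 (13.8%) beside 1949 of 27025 (7.21%). The 4 windows shown include those of Mfrp and Abca4, so they hold the letters more often than the 39 windows do. A match is a description of the sequence and not a binding site.

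Of the 203 genes higher in the Ttr-rich libraries, 159 belonged to no list. Among the 20 with the smallest p were Drc7, a dynein regulatory complex subunit of motile cilia, Wdr72, Sult1c2, a cytosolic sulfotransferase, the myosin light chain-like Calml4 and the endocytic adaptor Epn3. Drc7 was at 8.23, 21.7 and 33.8 CPM in the rich libraries and at 0.952, 1.57 and 3.22 CPM in the poor ones, a log2 difference of 3.37 ± 0.30 (edgeR adjusted p = 8.27e-06). Epn3 was at 3.93, 9.84 and 20.1 CPM against 0.524, 1.24 and 1.83 CPM. Calml4, Wdr72 and Sult1c2 were at most 8.55 CPM in any library and at most 1.05 CPM in a poor one. For all 5 the sets were apart.

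The levels of all genes were compared with that of Folr1. Over the 17 libraries, with group means removed, the Pearson r of log2(CPM + 0.5) with Folr1 was computed for 13377 genes with a mean of at least 5 CPM, as a description, since the libraries share the split and their depth. The first 10 of these, led by Clic6 (0.995), Tmem72 (0.994) and Slc4a5 (0.993), were on the list. Outside it the first 6 were Rdh5 (0.984), Gm44250 (0.983), Drc7 (0.982), Vat1l (0.977), Vwa5b1 (0.975) and Slc2a12 (0.975). Rdh5 encodes a retinol dehydrogenase and Slc2a12 a glucose transporter of the facilitative family.

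Rdh5 was at 7.91, 11.4 and 18.8 CPM in the rich libraries and at 2.24, 3.11 and 4.68 CPM in the poor ones. Slc2a12 was at 19.7, 32.1 and 63.7 CPM against 6.12, 6.92 and 9.68 CPM. Gm44250, an unnamed locus, was at 20.7, 31.7 and 70.3 CPM against 4.14, 6.21 and 11.6 CPM. Vat1l and Vwa5b1 likewise had every rich library above every poor one, with log2 differences of 1.84 ± 0.21 and 1.88 ± 0.23.

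Further called genes were picked out after their values were seen, for roles that are known from other tissue. The anion exchanger Slc4a2, of the basolateral membrane in secretory epithelia, was at 60.6, 99.4 and 173 CPM in the rich libraries and at 29.9, 36.6 and 45.4 CPM in the poor ones, a log2 difference of 1.33 ± 0.18. Stk39, the SPAK kinase that acts on chloride cotransporters, differed by 0.58 ± 0.09, and Fxyd1, a regulator of the sodium pump, by 1.05 ± 0.17. The membrane-cytoskeleton linker ezrin (Ezr) differed by 0.75 ± 0.14. In all 4 genes the sets were apart.

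A further 5 called genes were likewise picked out after their values were seen. Oca2, a melanosomal channel gene, was at 2.77, 4.84 and 12.2 CPM in the rich libraries and at 0.0560, 0.457 and 0.888 CPM in the poor ones. The factor Mitf was at 21.5, 25.8 and 34.9 CPM against 14.0, 16.9 and 20.7 CPM, a log2 difference of 0.57 ± 0.11, and Myo7a, an unconventional myosin, differed by 1.20 ± 0.14. The basement membrane collagens Col4a3 and Col4a4 differed by 1.20 ± 0.19 and 0.97 ± 0.16. Each of these 5 genes had its rich libraries above its poor ones.

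Motile cilia genes were higher in part. Of 25 tested genes of the ependymal and motile cilia list, 5 were higher, 0 lower and 20 not called, with a median log2 difference of 0.45, while DESeq2 called 10. Spag16, of the central apparatus, was at 2.48, 4.52 and 7.19 CPM in the rich libraries and at 0.807, 1.23 and 1.83 CPM in the poor ones, without overlap (log2 difference 1.82 ± 0.22, edgeR adjusted p = 6.49e-05). The radial spoke gene Rsph4a differed by 1.24 ± 0.23, the axonemal gene Cfap44 by 0.55 ± 0.11 and the ciliary gene Pifo, at 1.49 CPM or less, by 2.51 ± 0.49. Tekt1, the fifth by p, had 0.806 to 3.69 CPM against 0.311 to 1.05 CPM. For these last 4 the libraries overlapped.

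Other genes of this list that mark ependyma did not pass in edgeR. Foxj1, the master factor of motile cilia, stood at 0.75 ± 0.19 with an edgeR adjusted p of 0.0659 (DESeq2 called it), and Rarres2, Ccdc153 and Tmem212 at 0.12 ± 0.13, -0.17 ± 0.34 and -0.22 ± 0.32. Dynlrb2, a dynein light chain gene of the same list, stood at 1.53 ± 0.41 with an edgeR adjusted p of 0.106, and DESeq2 called it. Its counts were low, at 0.358 to 1.89 CPM in the rich libraries against 0.0560 to 0.640 CPM in the poor ones, so that difference is imprecise. Outside the list, and named after their values were seen, Gmnc, a coactivator of multiciliated cell fate, differed by 1.98 ± 0.26 and the p53 family gene Trp73 by 1.54 ± 0.23, both without overlap. The dynein heavy chains Dnah6 and Dnah2, picked in the same way, differed by 1.03 ± 0.17 and 0.47 ± 0.08. Those on the list did not pass. Dnah5 stood at 0.02 ± 0.10, Dnah9 at 0.36 ± 0.11, Dnah11 at 0.72 ± 0.24 and Dnah12 at -0.17 ± 0.16.

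Plvap, the diaphragm protein of fenestrated capillaries, was at 3.93, 6.47 and 10.7 CPM in the rich libraries and at 2.07, 2.99 and 3.66 CPM in the poor ones, a log2 difference of 1.12 ± 0.21 (edgeR adjusted p = 0.00494). Esm1, the other gene of that list, stood at 2.04 ± 0.56 with an edgeR adjusted p of 0.119. That difference is imprecise, since Esm1 was at 0.307 to 1.68 CPM in the rich libraries and 0 to 0.524 CPM in the poor ones. The sets were apart for Plvap and overlapped for Esm1. The Plvap call was lost in 3 of 31 other fits, among them APP/PS1 libraries alone. DESeq2 called both genes.

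The lists of the vessel wall and of its neighbours had 0 called genes at an adjusted p under 0.05 in edgeR or in DESeq2. Median log2 differences were 0.01 over 15 brain endothelial genes (1 with an unadjusted p under 0.05), 0.02 over 10 pericyte and smooth muscle genes (0), -0.14 over 7 astrocyte genes (1) and -0.0036 over 14 leptomeningeal and stromal fibroblast genes (0). The glucose transporter Slc2a1 had the smallest p of the endothelial list, at 563, 660 and 926 CPM in the rich libraries and 495, 894 and 1458 CPM in the poor ones, a log2 difference of -0.56 ± 0.20 that did not pass (edgeR adjusted p = 0.307). Oligodendrocyte genes had a median of -0.07 over 7 (1).

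Among immune lists, the 8 border macrophage genes had a median of -0.14, the 7 microglial genes -0.06, the 10 plaque-associated microglial genes -0.09 and the 7 tested neutrophil genes -0.30, with 0 called in each by edgeR or DESeq2 and 1, 1, 1 and 0 at an unadjusted p under 0.05. The 7 MHC class II genes all had positive differences and a median of 0.69, and 5 had an unadjusted p under 0.05 but none passed in edgeR. H2-Aa, an antigen-presenting chain, was at 4.25, 5.71 and 10.5 CPM in the rich libraries and at 2.24, 3.71 and 4.25 CPM in the poor ones, which left the sets just apart (log2 difference 0.89 ± 0.22, edgeR adjusted p = 0.0695), and DESeq2 called it. Interferon-stimulated genes had 10 of 10 positive differences, a median of 0.27 and 0 called by either tool, with 3 at an unadjusted p under 0.05. Their smallest edgeR adjusted p for the split was 0.246, for Ifi27. The 3 tested erythroid genes had a median of 0.14 and the 5 sex-linked genes one of -0.96, with 0 called by either tool and 0 at an unadjusted p under 0.05.

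The 9 cortical neuron genes all had negative differences, with a median of -0.21 and 0 called by edgeR or DESeq2, while 3 had an unadjusted p under 0.05. Slc17a7, the vesicular glutamate transporter of cortical excitatory neurons, was at 537, 659 and 766 CPM in the rich libraries and at 672, 755 and 909 CPM in the poor ones (log2 difference -0.27 ± 0.10, edgeR adjusted p = 0.294). The summed level of this neuronal list was 3300 to 4910 CPM in the rich libraries and 3793 to 5112 CPM in the poor ones. With the logarithm of that sum as a further covariate, a fit chosen after seeing the data, 141 genes were called, 134 of them among the 207, and 32 of the 49 choroid genes were higher. Its part in the smaller differences was not tested.

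Markers of other brain regions gave 2 further calls. Dsp, the desmosomal plaque protein desmoplakin, entered as a marker of the dentate gyrus and was at 12.7, 16.9 and 31.2 CPM in the rich libraries and at 5.50, 7.73 and 9.96 CPM in the poor ones (log2 difference 1.17 ± 0.17, edgeR adjusted p = 0.000475). The other 4 hippocampal genes had negative differences that did not pass. Ppp1r1b, the striatal signalling protein DARPP-32, differed by 0.42 ± 0.10 with overlapping libraries, and its call was lost in 14 of 31 other fits. Thalamic genes had a median of -0.06 and the immediate early genes a median of -0.25, with 0 called by edgeR or DESeq2 and 1 at an unadjusted p under 0.05 in each.

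The 4 genes lower in the Ttr-rich libraries shared no list. Cebpd, a C/EBP transcription factor of acute-phase and glucocorticoid responses, was at 6.99, 8.23 and 11.5 CPM in the rich libraries and at 7.78, 16.3 and 26.2 CPM in the poor ones (log2 difference -0.99 ± 0.22, edgeR adjusted p = 0.0323). The cadherin Cdh22 was at 23.0, 26.0 and 31.1 CPM against 30.3, 33.3 and 37.1 CPM (-0.40 ± 0.09), and the sphingomyelinase Smpd3 at 68.5, 77.6 and 86.7 CPM against 75.5, 90.4 and 97.1 CPM (-0.30 ± 0.07). Gm14703, an unnamed locus included because the count is small, was at most 4.09 CPM in every library. Libraries overlapped for all 4, and the calls of Smpd3, Cebpd and Cdh22 were lost in 19, 13 and 8 of 31 other fits, including that without WT_SC 1.

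The levels of the other markers within each set are set beside Ttr as a description, with no test, since Ttr chose the sets. Levels were taken as log2 CPM for Ttr and as log2(CPM + 0.5) for the other markers. Among the 10 Ttr-rich libraries the Pearson r with Ttr was 0.974 for Folr1, 0.975 for Kl, 0.946 for Clic6 and 0.902 for Kcnj13. Spearman's rho was 0.952, 0.952, 0.952 and 0.842 in the same order. Without WT_SC 4 and APP_SC 1, the libraries farthest from the median in Ttr, r was 0.948, 0.962, 0.918 and 0.822.

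Among the 7 Ttr-poor libraries r was 0.909 for Folr1, 0.865 for Kl, 0.982 for Clic6 and 0.761 for Kcnj13. Spearman's rho was 0.75, 0.964, 0.964 and 0.714. Without WT_SC 1 and APP_NOX2 5 the r of Kcnj13 was 0.491 and those of the others were 0.796, 0.770 and 0.959, so the relation of Kcnj13 rests on those libraries. The fitted slopes on these log2 scales were 0.848 to 0.954 in the rich libraries and 0.236 to 0.424 in the poor ones. The added 0.5 CPM flattens a slope at low levels, as for Folr1 at 0.336 to 3.44 CPM in the poor libraries. The difference between the slopes was not tested.

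**Figure D4:**
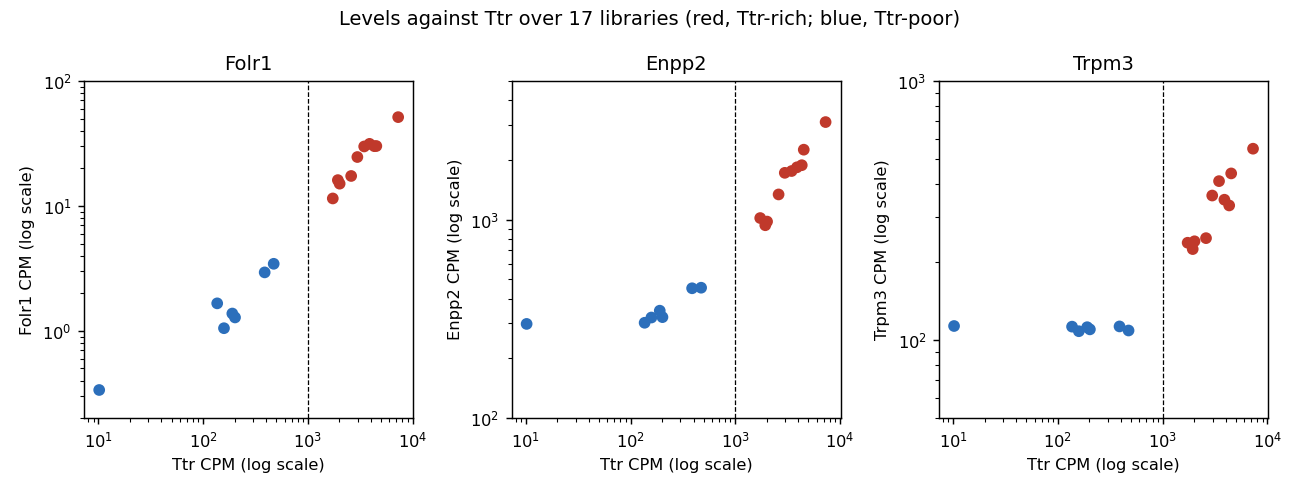
Levels of Folr1, Enpp2 and Trpm3 against that of Ttr (all in CPM, log axes) in the 17 libraries; red points are Ttr-rich, blue points Ttr-poor and the dashed line is at 1000 CPM. Folr1 follows Ttr down to WT_SC 1, Enpp2 stays at 298 to 454 CPM and Trpm3 at 108 to 113 CPM among the poor libraries.

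The genes differed in how far apart the poor libraries lay. Enpp2 and Htr2c varied 1.52-fold and 1.25-fold among the poor libraries, beside the 1.05-fold of Trpm3, while Clic6 varied 6.74-fold and Cldn2 7.04-fold. Among the rich libraries the same genes varied 3.31-fold, 2.19-fold, 2.44-fold, 4.45-fold and 4.20-fold. The smallest count in any library was 2916 reads for Enpp2, 545 for Htr2c and 1077 for Trpm3 but 26 for Clic6 and 10 for Cldn2, so the low end of Cldn2 was imprecise.

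The split was compared between genotypes, each of which had libraries in both sets. In WT libraries the difference between sets was 4.70 ± 0.41 on the log2 scale for Folr1, 3.54 ± 0.35 for Kl, 4.07 ± 0.40 for Clic6 and 3.26 ± 0.36 for Kcnj13. In APP/PS1 libraries it was 2.85 ± 0.43, 2.55 ± 0.39, 2.57 ± 0.43 and 1.89 ± 0.39. For Ttr, as a description, it was 4.96 and 2.89. The difference was smaller in APP/PS1 for 47 of the 49 choroid genes, with a median of -0.79, beside -0.015 over all genes.

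No gene passed the edgeR test of the interaction between set and genotype over 18752 genes, 0% of those tested, and the smallest adjusted p was 0.465. An unadjusted p under 0.05 was reached by 1843 genes, 17 of them on the choroid list. The WT libraries held both the highest and the lowest Ttr library, and the range of Ttr was 10.2 to 7285 CPM in WT but 158 to 4507 CPM in APP/PS1. The part of that range in the smaller differences was not tested. With the set as the only contrast in one genotype's libraries, WT libraries alone gave 215 calls and APP/PS1 libraries alone 47.

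The study's own comparisons were refitted with genotype and peptide as additive terms, with and without the set as a further term. For genotype, 107 of the genes tested were called without the set (0.587%) and 112 with it (0.607%), of which 105 were the same genes, and 109 of the 112 were higher in APP/PS1. For the inhibitor, 0 were called in either edgeR fit (0%) and 0 by DESeq2 with the set, with 377 and 400 genes at an unadjusted p under 0.05. With the set in the model, 0 of the 207 genes called for the split were called for genotype, beside 0.607% of all genes tested. At so small a share few calls could fall among 207 genes, so the 0 is not read as a result about them. The inhibitor fit called no gene at all, so it could call none of the 207.

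The set term narrowed the error of the choroid genes. Over 50 choroid genes, Ttr included, the median SE of the genotype effect was 0.485 without the set and 0.232 with it, beside 0.119 and 0.118 over all genes. Folr1 differed between APP/PS1 and WT by -0.55 ± 0.80 without the set and by -0.21 ± 0.36 with it. For the inhibitor against the control peptide it differed by 0.16 ± 0.80 and 0.19 ± 0.35. Kl, Clic6 and Kcnj13 likewise did not pass in any of these fits. The set was cut from Ttr, whose level these genes follow, so the term is not independent of them.

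**Figure D5:**
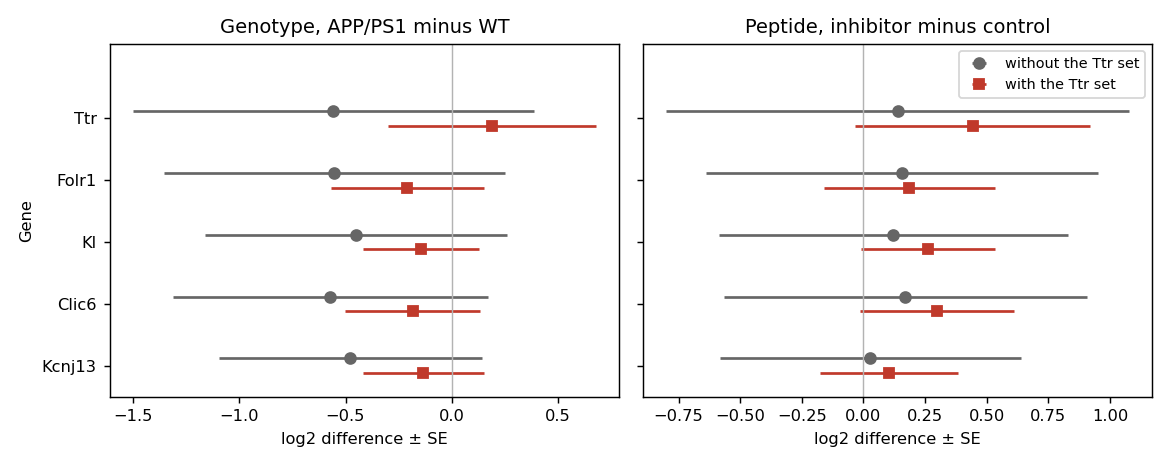
Log2 difference ± SE for genotype (left, APP/PS1 minus WT) and peptide (right, inhibitor minus control) in Ttr and the 4 other markers, from edgeR fits without the Ttr set (grey) and with it (red); the Ttr values are descriptive. The bars are shorter with the set, as for Folr1, where the SE of the genotype effect is 0.80 without it and 0.36 with it.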

How the data were processed

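Per the labels' protocols, RNA depleted of ribosomal RNA was made into libraries with a stranded Illumina TruSeq mRNA kit. The deposited table held whole-number counts per Ensembl gene made by the authors, and the submitters' processing notes name cutadapt, STAR, HTSeq, DESeq2 and the builds GRCh37 and mm10, with no role or version. Whether counting used strand is not given in the sources used here, so overlapping and antisense genes are uncertain. The table has 42687 gene rows, of which 42250 IDs matched a symbol; 20 columns that matched no sample here were not used. No pair of libraries held identical values, over 136 pairs, and libraries of a group differed by more than sampling noise (chi-square per degree of freedom 5.37 to 91.4).

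CPM were computed as count over column total. Genes were filtered with filterByExpr, scaled by TMM and tested with edgeR 4.0.16 in R 4.3.3 (glmQLFit and glmQLFTest), using the 4-group label and the set; DESeq2 1.42.0 was an alternative. Error terms are SE from these fits. Correlations used scipy 1.17.1. Replicate numbers follow accession order and pair nothing. The fit was tested on simulated data: of 100 genes changed by 1 on the log2 scale it recovered 86%, of 100 changed by 3 it recovered 100%, and 12 of 198 calls were false, over 18505 genes.

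The sets, lists and members were chosen with earlier results of these data known. Named genes are the 5 markers, the 20 genes with the smallest p that were higher and up to 10 lower (unnamed loci left out), all called choroid genes, up to 4 genes of any other list with an unadjusted p under 0.05, and the 6 genes outside the choroid list most like Folr1; others are said to be chosen after their values were seen. Alternatives covered scaling, filtering, the tool, the covariates, the Ttr threshold, a continuous Ttr term, single genotypes and leaving out each library. The values of 1 listed gene are not reported here.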

Additional observations from a re-analysis of the deposited data

Results flagged for a closer look

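Each library was set against the others of its set or group in 140 comparisons, of which 8 passed Dixon's test at the 95% level, where chance gives about 7. Values below are the gap to the nearest library divided by the whole range, on log2 levels except for total counts.

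Ttr in WT_SC 1 was the lowest of the 7 Ttr-poor libraries, with a ratio of 0.673. That set was cut from Ttr itself, so this ratio is only a description, although it was counted among the comparisons that passed. The summed level of the ependymal and motile cilia list was also lowest in WT_SC 1 among the WT_SC libraries (0.738), and that library had the highest total count of its group (0.767), 17862965 against 9356110 to 11342154 in the others. The astrocyte sum was highest in APP_SC 1 among the Ttr-rich libraries (0.535) and in WT_NOX2 2 among the WT_NOX2 libraries (0.766). WT_NOX2 2 was also the highest of its group in the neutrophil sum (0.727). The oligodendrocyte sum was lowest in WT_SC 4 among the WT_SC libraries (0.838), and the immediate early gene sum was lowest in APP_NOX2 4 among the APP_NOX2 libraries (0.936).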

How the results depend on the processing

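Over 31 alternative fits no named gene changed direction. For the 36 called choroid genes, 1094 of 1115 values kept their side of the threshold and 21 lost it. For 39 other named genes, 1114 of 1202 kept it, 65 lost it and 23 gained it. With log2 Ttr as a continuous term, some named genes not called for the split passed in edgeR. With positive slopes these were Esm1, H2-Aa, Ifi27 and H2-Ab1 (edgeR adjusted p = 0.00822, 0.00980, 0.0184 and 0.0474). With negative slopes they were the oligodendrocyte gene Cldn11 and the border macrophage gene Lyve1 (edgeR adjusted p = 0.0229 and 0.0381). WT_SC 1 weighs heavily in this term, since its log2 Ttr was 3.42 beside 7.10 to 8.88 in the other Ttr-poor libraries. How far these 6 calls rest on that library was not tested. The 207 calls for the split became 571 with no filter beyond 1 count (64.3% higher), 352 with log2 Ttr as a continuous term (81.2% higher) and 47 in APP/PS1 libraries alone, and leaving out 1 library gave 168 (without WT_SC 1, 166 shared) to 345 (without APP_SC 1, 200 shared). The choroid calls ranged from 35 to 36 over those left-out libraries. The 112 genotype calls with the set became 203 with no filter and 180 with the DESeq2 Wald test, and 74 (without APP_SC 2) to 119 with 1 library left out; the inhibitor calls were 0 to 0. Where an APP_SC library is left out of the split fit, the other is alone in its group. The group term then fits that library exactly, so it adds nothing to the set difference or to the spread. Either of these fits therefore rests on the libraries of the other groups. In the genotype fits, whose genotype and peptide terms are additive, the remaining APP_SC library still counts. Why the calls changed without an APP_SC library was not tested. Genes with few counts in the poor libraries have imprecise differences. No paired analysis was possible because the replicate numbers are only accession order.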
